A study of Arabidopsis thaliana with 6 samples.

Results

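The VPS (vacuolar protein sorting) genes described here are those whose symbol in the annotation of the ATH1 array is VPS followed directly by a digit, and which are the only gene named on their probe set. There were 10 of them, among 13356 genes named in this way and 22746 probe sets tested. Where a gene has several such probe sets, the one described is chosen by the highest mean level over the 6 arrays. Each of the 10 genes had 1 such probe set, so level did not decide which probe set of a gene was taken. The genes themselves were chosen with earlier results of these data known. By complex they were VPS22 of ESCRT-II, VPS20.1, VPS2.1, VPS2.2, VPS24.1, VPS24.2, VPS46.2, VPS60.1 and VPS60.2 of ESCRT-III, and VPS9B, which belongs to the RAB5 step. Retromer and tethering subunits were not among the genes found by this rule, so the description is mainly one of ESCRT-III.

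The arrays came from an experiment on HRS1 (AtNIGT1), a GARP-type transcription factor whose gene responds to nitrate. All 6 samples were Arabidopsis thaliana root protoplasts from nitrate-treated roots, transfected with the plasmid pBeaconRFP_GR-HRS1, in which the CaMV35S promoter drives HRS1 fused to the glucocorticoid receptor, and all were kept on nitrate with 35 µM cycloheximide, an inhibitor of protein synthesis. In 3 samples 10 µM dexamethasone (DEX), which lets such a fusion enter the nucleus, was added (+DEX), and in 3 it was not (−DEX). Red fluorescence from the plasmid served to sort the transfected cells, whose RNA was amplified and hybridised to 1 array per sample. The accession of the plants and their age are not given in the labels, and DEX-treated protoplasts without the fusion were not analysed here. The 35S promoter is active in most cell types and is not the gene's own.

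ESCRT complexes work on the surface of endosomes. They collect membrane proteins marked with ubiquitin and push the membrane inward, away from the cytosol, so that the endosome becomes a multivesicular body and its cargo reaches the vacuole to be degraded. ESCRT-I and ESCRT-II bind the cargo and start the process, VPS20 links ESCRT-II to the filament, SNF7 (VPS32) forms the filament, VPS24 and VPS2 cap and shape it, and VPS46 and VPS60 are later or regulatory subunits. In Arabidopsis this route removes plasma membrane proteins such as the auxin carriers of the PIN family, and many of its subunits are encoded by pairs of closely related genes. Setting +DEX against −DEX asks whether these transcripts respond to HRS1 in the nucleus when no new protein can be made.

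None of the 10 VPS genes passed the threshold of an adjusted p under 0.05 in either direction (limma, smallest adjusted p of the 10, 0.75). At an unadjusted limma p under 0.05 there were 2 of 10, both with a lower mean with DEX, VPS24.1 and VPS24.2. Over all probe sets, 0.119% were called lower and 0% higher at the adjusted threshold, and 6.59% had an unadjusted p under 0.05. The mean was lower with DEX in 7 of the 10 genes and higher in 3, against 46.1% of all probe sets with a higher mean. Their median log2 difference was −0.47, beside −0.10 over all probe sets tested. Levels and differences are on the log2 scale of intensity, with arrays brought to the same median, and levels are not compared between genes, since each probe set has its own response.

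The 10 genes differed in whether they were measured at all. A probe set was taken as measured on an array where it lay above the control level, the 95th percentile of the 27 probe sets that detect Bacillus transcripts on that array, which stood at log2 5.08 to 6.60 on the 6 arrays. VPS20.1, VPS2.1, VPS24.1, VPS46.2, VPS60.1 and VPS60.2 were above it on all 6 arrays, as were 33.4% of all probe sets. VPS2.2, VPS24.2 and VPS9B were under it on all 6, and VPS22 was above it on 4. VPS2.1 was thus measured on every array and VPS2.2 on none, VPS24.1 on every array and VPS24.2 on none, and VPS60.1 and VPS60.2 both on every array. In sorted cells, fewer cells of a type that makes a transcript and less of that transcript per cell cannot be told apart.

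**Figure D1:**
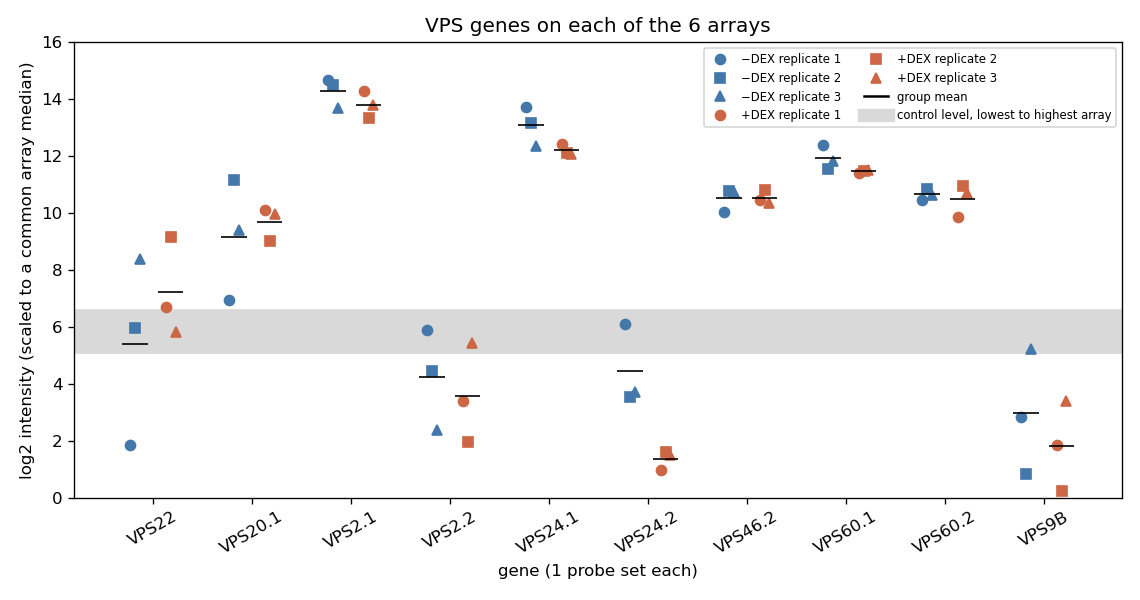
Log2 intensity (y axis) of the 10 VPS genes (x axis) on each array, with −DEX arrays in blue, +DEX arrays in orange, symbols for the replicate number and black bars for the mean of 3 arrays. The grey band spans the control level from the lowest array (5.08) to the highest (6.60): VPS2.2, VPS24.2 and VPS9B lie in or under it, and 6 genes lie above it on all 6 arrays.

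The arrays were not equal in quality. Their median deposited intensity ran from 66.3 to 92.9. The array of −DEX replicate 1 stood apart, with an average Spearman correlation of 0.708 to the remaining arrays (0.777 to 0.822 for those), and a 3′ to 5′ signal ratio of the ubiquitin control of 18.6 against 5.45 to 8.85, although its ratio for the GAPDH control was the lowest, 2.12 against 2.31 to 3.66. It was the highest or the lowest of the 6 arrays for 8 of the 10 VPS genes, and for 47.6% of all probe sets. For several genes the difference is given with and without this array, and its part in these differences beyond those values was not tested. Nothing in the labels says whether replicates were separate cultures, and the p-values here cover only the spread among these 6 samples, which may be technical. Of 12 marker loci of root cell types and leaf mesophyll, 2 had a probe set that names them alone. These were the root hair gene EXPA7 and the cortex gene CO2, and no leaf marker was among them. Both were under the control level on all 6 arrays, so root identity was not shown by these markers.

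Of the 2 ESCRT complexes that hold these VPS genes, ESCRT-II acts before ESCRT-III. VPS22, a core subunit of the complex, had log2 values of 1.85, 5.97 and 8.39 on the −DEX arrays of replicates 1, 2 and 3, and 6.71, 9.14 and 5.83 on the +DEX arrays. Only 1 of its 3 −DEX values, but all 3 with DEX, exceeded the control level, and the groups overlapped. Its difference was 1.83 ± 1.49 (SE; limma adjusted p = 0.83), and without −DEX replicate 1, the lowest of its 6 values, it was 0.05.

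VPS20.1 encodes the subunit that links ESCRT-II to the ESCRT-III filament. Its values were 6.96, 11.15 and 9.39 without DEX and 10.11, 9.01 and 9.98 with DEX. The highest and the lowest of these were both −DEX arrays, so that the +DEX values lay inside the range of the −DEX values. The group means were 9.17 and 9.70 (n = 3 each), and the difference was 0.54 ± 0.85 (SE; limma adjusted p = 0.93). Without −DEX replicate 1 the difference changed sign, to −0.57. Its pooled SD within groups, 1.55, exceeded the median of 0.66 over all probe sets measured on every array.

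VPS2 genes encode a late subunit of the filament that also recruits the ATPase that takes it apart. VPS2.1 had linear intensities from 10310 to 25912 on the scaled arrays. Its log2 values were 14.66, 14.50 and 13.70 without DEX and 14.28, 13.33 and 13.81 with DEX, and the groups overlapped. The difference was −0.48 ± 0.36 (SE; limma adjusted p = 0.82), with a 95% confidence interval from −1.24 to 0.28, or a +DEX level of 0.42 to 1.22 times the −DEX level. Its SE was the smallest of the 10 genes. VPS2.2 lay at or under log2 5.91 on every array, below the control level of each, and no ratio is given.

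VPS24 works with VPS2 at the end of the filament, and VPS24.1 was the measured gene with the largest difference in size. Its values were 13.74, 13.18 and 12.38 without DEX and 12.44, 12.13 and 12.09 with DEX. The +DEX arrays lay close together (SD 0.19) and the −DEX arrays did not (SD 0.68), and the groups overlapped only in that +DEX replicate 1 stood above −DEX replicate 3. The difference was −0.88 ± 0.40 (SE; limma adjusted p = 0.75, and 0.045 before adjustment), which is a −DEX level 1.84 times the +DEX level, with an interval from −1.73 to −0.02. It was −0.56 without −DEX replicate 1, −1.24 without −DEX replicate 3 and −0.52 after quantile normalization. Its adjusted p over all these and the other alternatives was 0.24 or higher.

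VPS24.2 had values of 6.11, 3.53 and 3.72 without DEX and 0.98, 1.61 and 1.51 with DEX. The groups did not overlap, but every value was under the control level of its array. Whether the difference is one of transcript or of background was not tested, and no fold is printed (adjusted p of 0.75 with limma).

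VPS46.2, also known as CHMP1A, is a late ESCRT-III subunit with a role in sorting auxin carriers for degradation in Arabidopsis. It had values of 10.05, 10.77 and 10.75 without DEX and 10.45, 10.80 and 10.35 with DEX. Its 6 values spanned 0.75, the narrowest range of the 10 genes, and the group means of 10.52 and 10.53 were nearly the same. The difference was 0.01 ± 0.47 (SE; limma adjusted p = 0.998), with an interval from −0.99 to 1.01, so that a change of up to 2.01-fold lies inside it. Without −DEX replicate 1, the lowest of its 6 values, the difference was −0.23.

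VPS60.1 and VPS60.2 encode regulatory subunits of the complex, and both genes were measured on every array. VPS60.1 had values of 12.40, 11.57 and 11.83 without DEX and 11.43, 11.46 and 11.50 with DEX. All 3 +DEX arrays lay below all 3 −DEX arrays, by a margin of 0.07 between the nearest values, and the +DEX arrays agreed within an SD of 0.04. The difference was −0.47 ± 0.40 (SE; limma adjusted p = 0.84), and without −DEX replicate 1, the highest of the 6, it was −0.24.

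VPS60.2 had values of 10.47, 10.86 and 10.65 without DEX and 9.86, 10.95 and 10.69 with DEX. The groups overlapped, and +DEX replicate 1 was the lowest. Its difference was −0.16 ± 0.48 (SE; limma adjusted p = 0.97) and turned to 0.16 without that array. Within each array, the log2 value of VPS60.1 minus that of VPS60.2 averaged 1.27 ± 0.62 without and 0.96 ± 0.54 with DEX (SD, n = 3 each). That change of −0.31 was not larger than the spread between arrays (two-sided exact permutation test, p = 0.6, where 3 against 3 arrays allow no p under 0.1). VPS2.2 and VPS24.2 were under the control level, so VPS2.1 and VPS24.1 were not compared with them in this way.

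VPS9B is a relative of VPS9A, which in Arabidopsis activates the RAB5 GTPases of endosomes. Its values were 2.83, 0.84 and 5.22 without DEX and 1.87, 0.24 and 3.38 with DEX. All were under the control level of their array, so here too no fold is printed (adjusted p of 0.88 with limma).

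**Figure D2:**
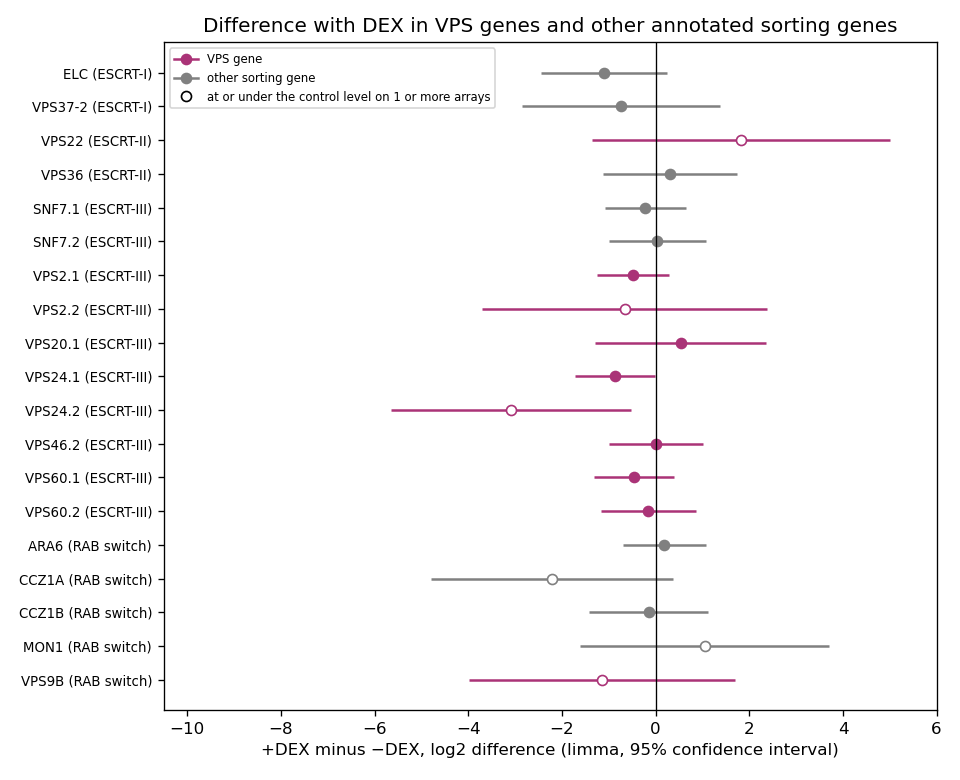
Log2 difference, +DEX minus −DEX (x axis), with the 95% confidence interval of the limma fit, for the 10 VPS genes (purple) and 9 other sorting genes that the gene table names (grey), ordered by complex. Open circles mark genes at or under the control level on 1 or more arrays, and 2 intervals leave out 0, those of VPS24.1 and VPS24.2.

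The groups did not overlap in 2 of the 10 genes, VPS60.1 and VPS24.2, both lower with DEX, beside 12.5% of all probe sets (7.55% lower and 4.99% higher). Among the 6 measured genes it was 1, VPS60.1, beside 13.5% of the probe sets measured on all arrays. These 6 genes had differences from −0.88 to 0.54, with a median of −0.31, and 2 of the 6 were positive, beside 45.6% of the probe sets measured on all arrays. VPS2.1, VPS24.1 and VPS60.1 had the negative differences farthest from 0 (−0.48, −0.88 and −0.47), and in all 3 the array of −DEX replicate 1 was the highest. Without that array the 3 differences were −0.29, −0.56 and −0.24, and all 6 measured genes were then negative.

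The scaling also moved these values, since the median over all probe sets moved from −0.10 to 0.01 with quantile normalization and to 0.09 with the deposited scaling. The median of the 10 VPS genes moved from −0.47 to −0.16 and −0.28. That median stayed lower than the median of all probe sets under each of the 3 scalings. It includes VPS2.2, VPS24.2 and VPS9B, under the control level on all 6 arrays, and VPS22, above it on 4. For the 6 genes measured on every array, the median was −0.31 with the scaling used here. Over all probe sets measured on every array it was −0.08. The deposited scaling adds 0.19 to the median difference of all probe sets, and VPS60.2, at −0.16 with the scaling used here, was 0.04 with it. VPS46.2 was positive under all 3.

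**Figure D3:**
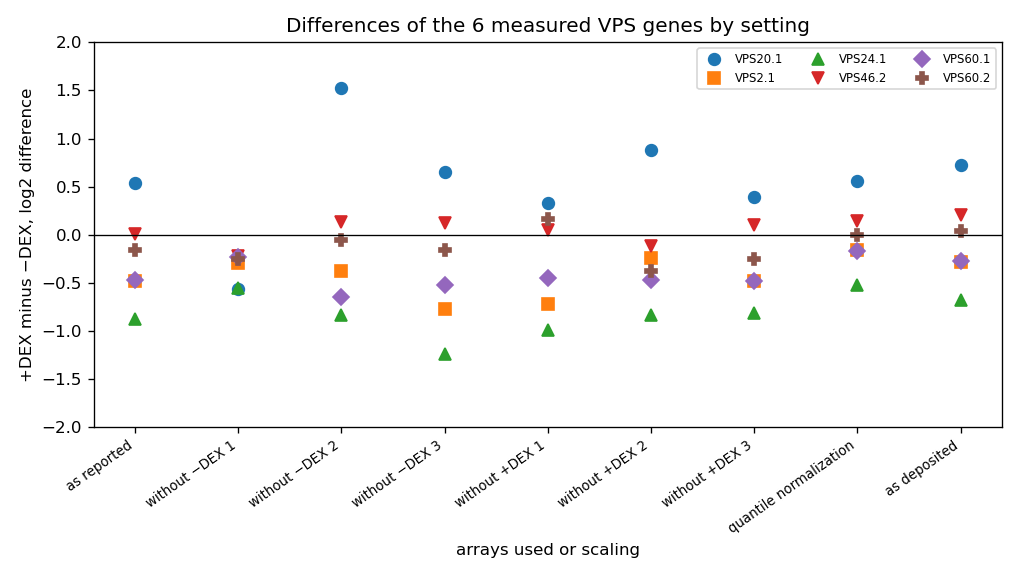
Log2 difference, +DEX minus −DEX (y axis), of the 6 VPS genes measured on every array, as reported, with each array left out in turn, and under 2 other scalings (x axis). VPS2.1, VPS24.1 and VPS60.1 are below 0 in each of these settings, and VPS20.1 runs from −0.57 to 1.53.

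The precision of the arrays sets what could have been seen. The standard errors of the 6 measured genes ran from 0.36 to 0.85, and the median over all probe sets measured on every array was 0.63. The largest unadjusted p among the probe sets called was 4.84e-05. At that p and their own standard errors, a difference of 2.05 (4.13-fold) would have been needed for VPS2.1, 2.29 for VPS24.1 and VPS60.1, 2.67 for VPS46.2, 2.73 for VPS60.2 and 4.89 (29.7-fold) for VPS20.1. The p needed shifts with the number of probe sets called, so these values are approximate. Differences well below them would not have passed with 3 arrays per group at these standard errors.

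The rest of the sorting pathway was read from a list of 99 loci, written by role from general knowledge. It holds the 10 VPS genes, 22 other loci with a probe set that names them alone, and 67 loci not analysed here. Of the 22, none passed the threshold (limma; 0 also at an unadjusted p under 0.05), 10 had a positive and 12 a negative difference, and the median was −0.16. The gene table gives a name to 9 of the 22, and the other 13 are given by their locus identifiers with no role.

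The list includes partners of the VPS genes in the ESCRT complexes. In ESCRT-I, ELC, the subunit that binds ubiquitin, had values of 11.33, 10.88 and 11.17 without DEX and 11.27, 10.37 and 8.42 with DEX. Its difference of −1.10 ± 0.63 (SE; limma adjusted p = 0.77) rested on +DEX replicate 3, the lowest array, and was −0.30 without it. VPS37-2, a further subunit of ESCRT-I, differed by −0.74 ± 0.99, with −DEX replicate 2 the highest, and by 0.33 without that array. In ESCRT-II, VPS36 had values of 8.06, 9.10 and 7.64 without and 8.59, 8.40 and 8.70 with DEX, and a difference of 0.30 ± 0.67.

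SNF7.1 and SNF7.2 encode the filament subunit of ESCRT-III and were measured on every array. SNF7.1 had values of 11.80, 11.30 and 11.86 without and 11.21, 11.50 and 11.59 with DEX, and a difference of −0.22 ± 0.40 (0.06 after quantile normalization). SNF7.2 had values of 12.16, 11.33 and 10.93 without and 12.31, 11.10 and 11.11 with DEX, and a difference of 0.03 ± 0.48, the sign of which changed with the array left out. Over the 8 ESCRT-III genes above the control level on all 6 arrays, 5 differences were below 0 and 3 above it, and their median was −0.19.

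Downstream of the ESCRT steps, RAB5 GTPases give way to RAB7 on the endosome before it fuses with the vacuole, a switch carried out by MON1 and CCZ1. ARA6, a plant-specific RAB5 GTPase, had values of 11.23, 11.41 and 11.29 without and 10.97, 11.77 and 11.75 with DEX, and a difference of 0.19 ± 0.42. MON1 exceeded the control level on 2 of the 3 arrays without and all 3 with DEX, and its difference of 1.05 ± 1.24 became −0.27 without −DEX replicate 1, where it was lowest. CCZ1B differed by −0.15 ± 0.60, by 0.08 without +DEX replicate 3 and by −0.46 without −DEX replicate 1, its lowest array. CCZ1A, which with CCZ1B was named after its values were seen, was above the control level on 2 of 3 −DEX and 1 of 3 +DEX arrays, with means of 7.02 and 4.81, and +DEX replicate 1 was its lowest array.

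Among the 13 loci without a name, differences ran from −2.90 to 1.12. Over all 22 other loci, groups did not overlap in 3, beside 12.5% of all probe sets, and these 3 were among the 13 without a name. AT5G16880 was lower with DEX (−0.80 ± 0.49, and −0.42 without +DEX replicate 1) and AT2G38410 higher (0.74 ± 0.47, and 0.49 without +DEX replicate 3). AT1G48550, named after its values were seen, was the third. It lay above the control level on 2 of 3 arrays in each group, and its difference of −2.90 ± 1.38 (limma adjusted p = 0.76) was −1.28 without +DEX replicate 1, where its value of 1.07 was under the control level. AT1G22860 differed by 1.08 ± 1.06 and by −0.47 without −DEX replicate 1, and AT1G12470 by 0.25 ± 0.69 and by −0.22 without it. AT2G32760 differed by −0.37 ± 0.68, and by −0.91 to 0.058 with single arrays left out. AT3G16270 differed by −0.47 ± 0.58, by −0.15 without −DEX replicate 1 and by −0.0048 without +DEX replicate 1. AT3G50860 differed by 1.12 ± 1.17 and by 0.30 without −DEX replicate 2, and lay above the control level on 1 of 3 −DEX arrays.

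**Figure D4:**
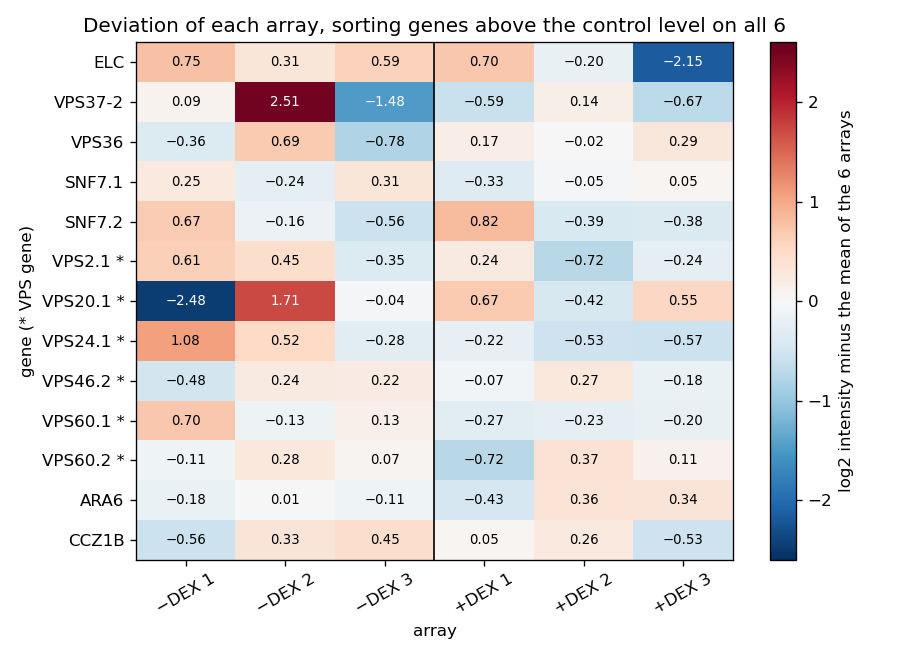
Log2 intensity of each array minus the mean of the 6 arrays (colour and printed value) for the 13 named sorting genes measured on every array (rows, VPS genes marked *) on the −DEX and +DEX arrays (columns). Single cells such as VPS20.1 on −DEX replicate 1 (−2.48), VPS37-2 on −DEX replicate 2 (2.51) and ELC on +DEX replicate 3 (−2.15) lie farthest from the mean of their gene.

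The array of −DEX replicate 1 was the lowest for VPS20.1, VPS22 and VPS46.2 among the VPS genes and for MON1, CCZ1B, AT1G22860, AT1G12470 and AT2G38410 among the other genes named above. Among the VPS genes it was the highest for VPS2.1, VPS2.2, VPS24.1, VPS24.2 and VPS60.1. Among the other genes named above it was the highest for ELC, AT3G16270 and AT1G48550. Of the 13 named genes measured on every array, it was the highest for 4 and the lowest for 3, while −DEX replicate 2 was the highest for 3 and the lowest for 0. Over all probe sets measured on every array, −DEX replicate 1 was the highest in 26.2% and the lowest in 26.8%, and −DEX replicate 2 in 28.9% and 12.0%.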

How the data were processed

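The deposited values are linear intensity, 1 value per array for each probe set. The sources used here do not give the method of summary. From the values, the authors had scaled each array to a 2% trimmed mean of 500. Per the labels, RNA was extracted with TRIzol and labelled with biotin by a 3′ IVT kit. Here arrays were scaled to a common median and floored at 1 before log2. After 64 control probe sets of 22810 were left out, 22746 were tested with limma 3.58.1 in R 4.3.3 (group as the only term, eBayes with a variance trend, two-sided, Benjamini-Hochberg over all probe sets). The fit was tested on simulated data with a spread set smaller than that of these arrays. That test does not show how the fit performs at their full spread.

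Genes were named through the array annotation and the gene table of TAIR10.1, which matched all 10 members. Members and lists were chosen with earlier results of these data known. All members are named, and per role the 2 other genes with the smallest p that were measured on every array of a group. The planned promoter and protein sequences were not analysed here, and no coordinates are printed, because no genome build is named for them. Between arrays that share a replicate number, deviations from the group means had correlations of 0.025, −0.0051 and 0.014, so the numbers were not taken as pairs. Alternatives were the replicate block, scaling, a filter, a floor, the variance model, array weights and each array left out.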

Additional observations from a re-analysis of the deposited data

How the results depend on the processing

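The count of VPS genes called was 0 in each of the 13 alternatives run, as was that of the 22 other sorting loci, and 0 probe sets were called higher. Probe sets called lower numbered 27, and 0 under eBayes with no variance trend, 0 under a floor at log2 5 and 33 with the replicate block, with 0 to 46 when single arrays were left out. The block changed no call of a VPS gene. At an unadjusted limma p under 0.05 there were 2 VPS genes, and 1 after quantile normalization, 1 as deposited and 0 with the floor. That count was 0 to 3 with single arrays left out. VPS genes without overlap numbered 2, and 1 without the dimmest 40% of probe sets (7 of the 10 genes left), 1 with the floor, and 2 to 4 with single arrays left out. With fewer arrays more groups separate: the share of all probe sets without overlap was 12.5% with all 6 arrays, 20.8% to 29.6% with 5, and 29.6% without −DEX replicate 3, where the count was 4. The median of the VPS genes was between −0.51 and −0.16 in all alternatives. That of the other loci was 0.05 after quantile normalization, 0.04 as deposited and −0.28 to 0.12 with single arrays left out.

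Values that were not called changed sign. SNF7.1 was 0.064 after quantile normalization, VPS60.2 was 0.036 and CCZ1B 0.046 as deposited, a scaling that moved the median of all probe sets by 0.19, and VPS46.2 was −0.059 with array weights. With single arrays left out, VPS2.2 ranged from −1.60 to 0.17, VPS20.1 from −0.57 to 1.53, VPS46.2 from −0.23 to 0.13, VPS60.2 from −0.38 to 0.16, VPS37-2 from −1.67 to 0.33, SNF7.2 from −0.37 to 0.38, VPS36 from −0.016 to 0.71, CCZ1B from −0.46 to 0.081, MON1 from −0.27 to 1.92, AT1G22860 from −0.47 to 1.92, AT1G12470 from −0.22 to 0.61 and AT2G32760 from −0.91 to 0.058. The cause was not tested. No gene had another probe set that names it alone, so that alternative gave no value. Signal over background limits VPS2.2, VPS24.2, VPS9B and VPS22.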
